A study of Mus musculus with 6 samples.

Results

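The 10 genes described here are Phgdh, Psat1, Psph and Shmt2 of serine and glycine synthesis, and Atf4, Ddit3, Trib3, Asns, Chac1 and Sesn2 of the ATF4 stress response. They were chosen by symbol, through the Ensembl identifier of each gene, out of the 35275 genes in the count table. All 10 were found, and 9 had enough reads to be tested between genotypes. Bulk RNA-seq of the whole spinal cord, with 1 library from each of 3 Sox2 cKO and 3 Ctrl mice, was performed to ask which genes depend on SOX2 in astrocytes of the adult central nervous system.

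The Sox2 cKO mice were mGfap-Cre:Sox2fl/fl, in which a Gfap promoter fragment of the mouse expresses Cre, so that floxed Sox2 is lost from astrocytes and from any other cell in which that promoter has been active. The Ctrl mice were mGfap-Cre:Sox2+/+ in the sample labels, whereas the design text of the series allows mice with either mGfap-Cre or Sox2fl/fl, and the study's methods describe them as Sox2fl/fl littermates, so the sources differ on the alleles of the Ctrl mice. Both groups were C57BL/6, and their age was given as postnatal day 80 in the protocol and as postnatal day 90 in the labels. The study's methods describe females and males in the same proportion in each group. The lowest RNA integrity is given as lower in the labels than in the study's methods. Deletion of Sox2 was constitutive rather than induced in the adult, and the tissue was a mixture of neurons, glia and vascular cells. In such bulk tissue, fewer cells of a type and less RNA per cell cannot be told apart.

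Serine is made from the glycolytic intermediate 3-phosphoglycerate by PHGDH, PSAT1 and PSPH in sequence, and in the central nervous system this route is used mainly by astrocytes, which supply serine to neurons. The mitochondrial enzyme SHMT2 then turns serine into glycine and a one-carbon unit. ATF4 is a bZIP transcription factor whose translation increases when the initiation factor eIF2 is phosphorylated, as happens when amino acids are short, when proteins misfold in the endoplasmic reticulum (ER) or when mitochondria fail. It switches on enzymes that make or import amino acids, serine synthesis among them, together with the stress factor CHOP (Ddit3), the pseudokinase TRIB3, the glutathione-degrading enzyme CHAC1 and the mTORC1 inhibitor SESN2.

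The sequences printed first are the listed SOX2 sites nearest to a gene of the 10 and the stretches that match the ATF4 element, shown as reference for the results that follow. Of the 10 genes, 2 were the nearest gene to a site in the study's list of its most enriched SOX2-bound sites, which came from ChIP-seq of the adult cerebral cortex, not of the spinal cord measured here. The Phgdh site lies in an intron of Phgdh, 20634 bases downstream of the start of the gene, in the window chr3:98319306-98319406 of mm10. The Psat1 site lies in no annotated gene, 145819 bases downstream of the start of Psat1 and beyond its end, at chr19:15801468-15801568. Each sequence is given on the strand of the site, with the 11 bases of the site in capitals and 9 bases on each side.
Phgdh site: ggcatgtggACAACAAAGGAgcctttttt
Psat1 site: tgttggaggAGGAGAATGGGtgggaagga
The Phgdh site holds CAAAG, the core of the SOX motif, and the Psat1 site does not. No site of that list was assigned to the other 8 genes, whose sites of lower enrichment were not analysed here.

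ATF4 binds, with a C/EBP partner, to the C/EBP-ATF response element (CARE), searched here as TGATGNAA on both strands from 250 bases before to 50 bases after each start in RefSeq (GRCm38.p6). Promoter sequence was at hand for all 10 genes, and 3 of them held the element, beside 4.51% of all 27025 genes with a promoter. The 3 stretches are given along the strand of the gene, with the element in capitals and 10 bases on each side.
Asns: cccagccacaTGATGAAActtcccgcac
Chac1: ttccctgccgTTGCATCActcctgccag
Trib3: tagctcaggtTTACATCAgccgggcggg
The Asns element was on the strand of the gene, from 23 to 16 bases before the start, at chr6:7693225-7693232. The Chac1 element was on the opposite strand, from 193 to 186 bases before the start, at chr2:119351049-119351056, and the Trib3 element was also on the opposite strand, at chr2:152344039-152344046, from 14 to 21 bases after the start. These distances use RefSeq starts. Against the GENCODE gene bounds given below, the Trib3 element lies just upstream of the gene and the Asns element inside it. These letters were not found in the windows of Atf4, Ddit3, Phgdh, Psat1, Psph, Shmt2 and Sesn2.

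The deleted gene was low in every Sox2 cKO library. Sox2 had 19.9, 14.8 and 29.5 CPM (read counts scaled to the size of the library) in Ctrl libraries 2, 4 and 6, and 3.16, 2.69 and 2.98 CPM in Sox2 cKO libraries 1, 3 and 5, a log2 fold change of -2.86 ± 0.24 (SE, edgeR adjusted p = 0.00096). The libraries held 21507911 to 28392184 counts. Of 16137 genes tested with edgeR's quasi-likelihood test, 3970 were differentially expressed at an adjusted p below 0.05. Of 12 astrocyte markers 7 fell, with Gfap at 2841 ± 591 CPM in Ctrl and 1312 ± 167 CPM in Sox2 cKO (SD, n = 3) and Aldh1l1 at 71.8, 87.7 and 87.7 CPM against 61.4, 59.7 and 70.1 CPM, while all 7 neutrophil markers rose. With the gene length trend described next removed, 4 of the 12 and 5 of the 7 were still called. The log2 fold change decreased with the length of the gene across the genes tested (Spearman's rho = -0.48, a description across genes), so that short genes lay higher in Sox2 cKO. Of the 10 genes described here, 9 are shorter than the median tested gene of 3060 bases, and the fold changes are therefore given below also after removal of this trend in each library.

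Among the 9 genes tested, Atf4, Ddit3, Psph and Shmt2 rose in Sox2 cKO and none fell in edgeR or DESeq2. In edgeR 5 of the 9 had an unadjusted p below 0.05, Sesn2 being the fifth and the lower one. The same held for 6391 of all 16137 genes tested. The folds of those that rose lay between 1.35 and 1.93. That is 4 genes called higher of 9, where 12.2% of all genes tested were called higher and 12.4% lower. Phgdh and Psat1, the enzymes of the opening steps of serine synthesis, and Asns were within 1.07-fold of their Ctrl levels in either direction and did not pass the test. DESeq2 called the same 4 genes, where it called 28.1% of all genes in either direction and edgeR 24.6%. The median log2 fold change was 0.33 over the 9 genes and 0.018 over all genes tested. With the length trend removed, 2 of the 4 genes, Atf4 and Psph, remained called higher, beside 6.08% of all genes called higher, 6.99% called lower and 13.1% in either direction, and the median of the 9 genes was 0.11.

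Phgdh (ENSMUSG00000053398, chr3:98313170-98339990 of mm10) encodes the enzyme that commits 3-phosphoglycerate to serine synthesis. Its normalised read count was 88.3, 87.1 and 94.8 CPM in Ctrl libraries 2, 4 and 6 and 98.0, 79.4 and 84.1 CPM in Sox2 cKO libraries 1, 3 and 5. The highest and the lowest value of all 6 libraries were both found in Sox2 cKO, and the groups overlapped. Its log2 fold change was -0.048 ± 0.09 (SE, edgeR adjusted p = 0.73) and -0.23 with the length trend removed (adjusted p = 0.076), where the Sox2 cKO libraries lay below Ctrl without overlap. It was 0.046 in limma on log2(FPKM + 1), where fold changes lay above those of edgeR by a median of 0.094 over all genes. The sign of Phgdh thus differed between fits of different scaling, and its direction was not settled.

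Psat1 (ENSMUSG00000024640, chr19:15904678-15947337) encodes the aminotransferase of the following step, which takes its amino group from glutamate. It had 240.2, 224 and 242 CPM in Ctrl and 217, 204 and 237 CPM in Sox2 cKO. Library 5 of Sox2 cKO lay within the Ctrl range and the other two lay below it. The log2 fold change of -0.10 ± 0.09 did not pass the test (edgeR adjusted p = 0.40), nor did the value of -0.19 with the length trend removed (adjusted p = 0.12). As for Phgdh, the corrected Sox2 cKO values lay below Ctrl without overlap. Over the same libraries the astrocyte markers had a median log2 fold change of -0.33, and their part in the values of these astrocyte-enriched enzymes was not tested.

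Psph (ENSMUSG00000029446, chr5:129765558-129787449) encodes the phosphatase that releases free serine at the end of the route. It had 11.6, 9.48 and 10.7 CPM in Ctrl and 17.5, 14.6 and 14.9 CPM in Sox2 cKO. Each Sox2 cKO library was above each Ctrl library, and the group means were 10.6 ± 1.05 and 15.7 ± 1.58 CPM (SD, n = 3). Psph thereby rose 1.48-fold, a log2 fold change of 0.57 ± 0.12 (SE, edgeR adjusted p = 0.015). The call held with the length trend removed, at 0.51 (adjusted p = 0.025). In edgeR it was lost without Ctrl library 4 (0.49, adjusted p = 0.074) or without Sox2 cKO library 1 (0.48, adjusted p = 0.071). These edgeR fits called only 26 and 8 of all genes tested. DESeq2 called Psph in both cases, at an adjusted p of 0.039 without Sox2 cKO library 1.

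The count of Psph relative to that of Phgdh, an enzyme of the same route, is given as a description. The Psph count was 0.131, 0.109 and 0.113 of the Phgdh count in Ctrl and 0.178, 0.184 and 0.177 of it in Sox2 cKO. The highest Ctrl ratio was below the lowest Sox2 cKO ratio, with means of 0.118 ± 0.0119 and 0.180 ± 0.0035 (SD, n = 3). The groups also did not overlap with the length trend removed. This ratio, and the ratios to Asns given below, were chosen after the values of the single genes were seen and add nothing to the tests of those genes.

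Shmt2 (ENSMUSG00000025403, chr10:127517123-127522444), the mitochondrial serine hydroxymethyltransferase, had 17.4, 15.8 and 14.0 CPM in Ctrl and 21.9, 21.9 and 19.8 CPM in Sox2 cKO. The groups did not overlap. Its log2 fold change of 0.43 ± 0.11 passed the test (SE, edgeR adjusted p = 0.022), a rise of 1.35-fold. With the length trend removed it was 0.30 and no longer passed (adjusted p = 0.059). In edgeR the call was lost without Ctrl library 4 or 6 and without Sox2 cKO library 1 or 3. Those fits called 26, 1082, 8 and 1359 of all genes tested. DESeq2 without Ctrl library 4 or Sox2 cKO library 1 did not call Shmt2 either. The log2 fold change lay between 0.35 and 0.50 over all 6 edgeR fits that each left out 1 library. The cytosolic counterpart Shmt1 stood at -0.044 on the log2 scale (adjusted p = 0.89).

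**Figure D1:**
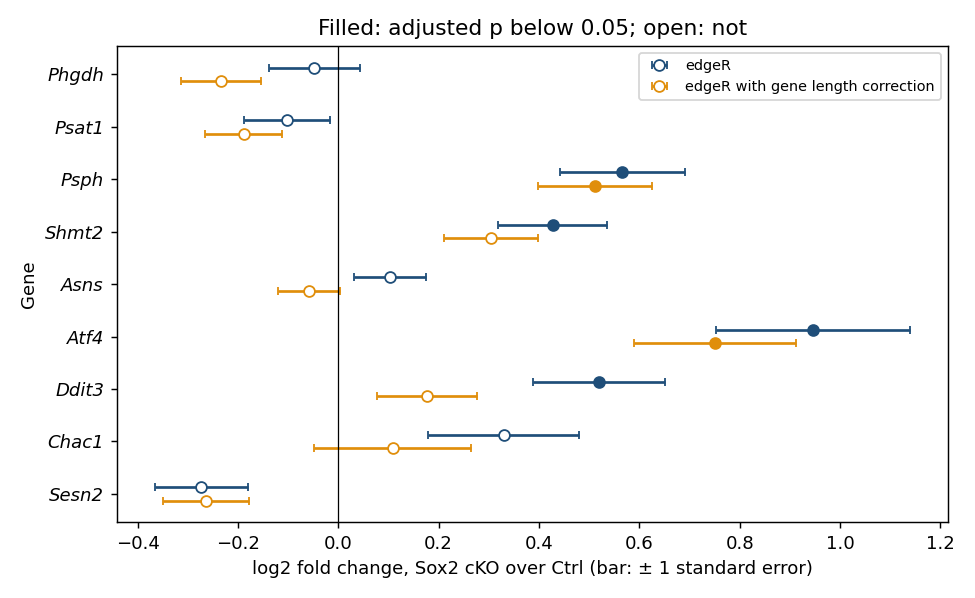
Log2 fold change of each tested gene in Sox2 cKO against Ctrl (x axis) with its standard error, from edgeR as such and with the gene length trend removed. Atf4 and Psph passed the test in both fits, Ddit3 and Shmt2 only without the correction, and Asns changed sign.

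Atf4 (ENSMUSG00000042406, chr15:80255184-80257541) showed the largest difference of the 9 genes. It had 70.0, 43.5 and 36.3 CPM in Ctrl and 102, 96.9 and 90.4 CPM in Sox2 cKO. The groups did not overlap, but Ctrl library 2 stood apart from the other two Ctrl libraries and nearer to the Sox2 cKO values. The means were 50.0 ± 17.8 and 96.3 ± 5.62 CPM (SD, n = 3), and the gene rose 1.93-fold, with a log2 fold change of 0.95 ± 0.19 (SE, edgeR adjusted p = 0.014). With the length trend removed the value was 0.75 (adjusted p = 0.024). Without Ctrl library 2 it was 1.27, and the call was lost without Ctrl library 4 (0.86, adjusted p = 0.069) or Sox2 cKO library 1 (0.91, adjusted p = 0.067). The latter edgeR fits called only 26 and 8 of all genes tested. Atf4 kept an unadjusted p below 0.05 in each, as did 4758 and 4945 of all genes. DESeq2 called Atf4 without Ctrl library 4 but not without Sox2 cKO library 1. All these values are RNA levels, whereas ATF4 is controlled largely through translation of its mRNA, which was not measured here.

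Ddit3 (ENSMUSG00000025408, chr10:127290774-127296288) encodes CHOP, a bZIP factor of prolonged stress. It had 19.8, 14.8 and 14.1 CPM in Ctrl and 24.7, 22.4 and 22.7 CPM in Sox2 cKO, again without overlap and again with Ctrl library 2 as the highest of its group. Its log2 fold change of 0.52 ± 0.13 passed the test (SE, edgeR adjusted p = 0.022), a rise of 1.43-fold. Ddit3 is the shortest of the 10 genes by the length used for FPKM (969 bases). With the length trend removed the value was 0.18, the groups overlapped and the call was lost (adjusted p = 0.25). It was also lost without Ctrl library 4 or 6 and without Sox2 cKO library 1 or 3. Those edgeR fits called 26, 1082, 8 and 1359 of all genes tested. DESeq2 without Ctrl library 4 or Sox2 cKO library 1 did not call Ddit3 either.

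Asns (ENSMUSG00000029752, chr6:7675169-7693254), the asparagine synthetase whose promoter held the element printed above, had 83.1, 77.1 and 80.6 CPM in Ctrl and 84.1, 84.7 and 89.8 CPM in Sox2 cKO. The groups did not overlap, but the lowest Sox2 cKO library was close to the highest Ctrl library. A log2 fold change of 0.10 ± 0.07 did not pass the test (SE, edgeR adjusted p = 0.31) and became -0.058 with the length trend removed, where the groups overlapped. Within each library the Atf4 count was 0.842, 0.564 and 0.451 of the Asns count in Ctrl and 1.21, 1.15 and 1.01 of it in Sox2 cKO. The Ddit3 count was 0.239, 0.191 and 0.175 of the Asns count in Ctrl and 0.294, 0.265 and 0.252 of it in Sox2 cKO. Both ratios were higher in each Sox2 cKO library than in each Ctrl library, and with the length trend removed this held for Atf4 but not for Ddit3, where the groups overlapped.

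Chac1 (ENSMUSG00000027313, chr2:119351229-119354381) had 5.65, 5.65 and 5.50 CPM in Ctrl and 6.24, 6.72 and 8.16 CPM in Sox2 cKO. The Ctrl libraries lay close together and the Sox2 cKO libraries spread above them, led by library 5. The log2 fold change was 0.33 ± 0.15 (SE, edgeR adjusted p = 0.13), and 0.11 with the length trend removed, where the groups overlapped. Limma on log2(FPKM + 1), in which the median of all genes was higher by 0.09, gave 0.33 and passed the test (adjusted p = 0.038).

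Sesn2 (ENSMUSG00000028893, chr4:132492032-132510501), the longest of the 10 genes by the length used for FPKM (3475 bases), was the only one whose Sox2 cKO libraries were all below Ctrl before any correction. It had 19.9, 20.9 and 20.8 CPM in Ctrl and 15.9, 17.5 and 17.6 CPM in Sox2 cKO. The log2 fold change of -0.27 ± 0.09 did not pass the test (SE, edgeR adjusted p = 0.055) and was -0.26 with the length trend removed (adjusted p = 0.067). It did pass with a correction for GC content (-0.32, adjusted p = 0.039) and without Ctrl library 2 (-0.30, adjusted p = 0.035). Sestrins are also induced by p53 and FOXO factors.

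Trib3 (ENSMUSG00000032715, chr2:152337422-152344032) was close to the limit of detection. It had 8, 3 and 7 counts in Ctrl and 14, 10 and 7 counts in Sox2 cKO, and was therefore not tested. A change of this gene was not detectable at this depth: edgeR without a filter on low counts gave 0.56 with an adjusted p of 0.59, and the normalised counts overlapped.

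Before correction 6 of the 9 tested genes lay higher in Sox2 cKO without overlap and 1 lay lower, where 22.6% of all tested genes lay higher and 22.1% lower in this way, 44.7% together. With the length trend removed, 3 lay higher (Atf4, Psph and Shmt2), 3 lay lower (Phgdh, Psat1 and Sesn2) and 3 overlapped, beside 18.0% of all tested genes higher and 19.4% lower. The libraries also differed in how expression varied with gene length. Relative to the mean of all 6 libraries, expression increased with gene length in Ctrl libraries 4 and 6 (Spearman's rho = 0.45 and 0.38 across genes) and decreased with it in Sox2 cKO libraries 1, 3 and 5 (-0.47, -0.32 and -0.38). Ctrl library 2 lay between them at 0.11. It also did so in the values of Atf4, Ddit3, Psph, Shmt2, Asns and Sesn2, but not of Phgdh, Psat1 and Chac1. The part of this trend in the differences between genotypes was not tested beyond the corrected values given with each gene, since trend and genotype move together over these libraries.

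Levels can be compared between genes only per length, as FPKM, the read count divided by the length of the gene and the total of the library. In Ctrl, Psat1 was the most abundant of the 10 genes with 86.8 ± 4.48 FPKM (SD, n = 3), followed by Phgdh with 45.9 ± 1.51, Asns with 38.5 ± 2.20, Atf4 with 28.2 ± 10.8 and Ddit3 with 16.2 ± 3.58 FPKM. Shmt2 with 6.60 ± 0.888, Sesn2 with 5.71 ± 0.0853, Psph with 3.55 ± 0.417, Chac1 with 3.31 ± 0.131 and Trib3 with 0.131 ± 0.0627 FPKM followed. Serine synthesis thus spanned a wide range of mRNA levels, with Psph far below the preceding pair of enzymes. Neighbours in this order whose Ctrl libraries overlapped were Asns and Atf4, Atf4 and Ddit3, Shmt2 and Sesn2, and Psph and Chac1. In Sox2 cKO, Atf4 reached 57.8 ± 4.67 FPKM, above the means of Phgdh (47.7 ± 6.22) and Asns (44.2 ± 0.849), while Psat1 stayed first at 86.6 ± 5.78 FPKM. The Sox2 cKO libraries of Atf4 (lowest 53.1 FPKM) and Phgdh (highest 54.8 FPKM) overlapped. The FPKM were not corrected for the length trend, which differed between the groups.

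Neighbours that share exon bases can affect the counts of some of these genes. Strand-specific counting is neither named nor denied in the sources used here. Whether reads over shared bases were added or left out was not known, and their part in the values was not tested. The exons of Psph share 452 of the 4329 bases covered by any annotated exon, or 10.4%, with those of Cct6a on the other strand. Cct6a, a chaperonin subunit with 17882 counts over all libraries, stood at -0.14 on the log2 scale (edgeR adjusted p = 0.19), opposite in sign to Psph. Ddit3 shares 3.97% of its exon bases with Mars (-0.17, adjusted p = 0.16) and Shmt2 shares 1.03% with Ndufa4l2 (0.36, adjusted p = 0.43). A further annotated Ddit3 entry on the same strand is not in the count table and neither is the processed pseudogene Phgdh-ps1, so reads could not be apportioned between these copies.

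The other genes of the pathway were described through 8 lists with 122 genes, of which 120 were tested. In all, 15 of them were called higher and 22 lower, and their median log2 difference was 0.017, beside 0.018 over all genes, of which 12.2% were called higher and 12.4% lower. The balance of directions turned with the scaling. It was 21 higher and 13 lower in limma on log2(FPKM + 1), 17 and 17 with upper quartile scaling, and 8 and 13 with the length trend removed. The lists were selected for their biology but with earlier results of these data known.

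Upstream of ATF4, the list of eIF2 kinases, eIF2 and eIF2B subunits and phosphatase subunits had 16 tested genes, of which 2 rose and 2 fell, with a median of 0.024. Eif2s1, the subunit that is phosphorylated in stress, had 42.9, 36.2 and 35.4 CPM in Ctrl and 49.7, 46.7 and 45.6 CPM in Sox2 cKO and rose by 0.31 ± 0.10 (SE, edgeR adjusted p = 0.039; 0.31 with the length trend removed, adjusted p = 0.042). Eif2b2, a subunit of the exchange factor, rose by 0.33 (adjusted p = 0.044), which was 0.10 and not called with the length trend removed. Both genes that fell act on the amino acid sensing kinase GCN2. Gcn1l1, its activator, was at -0.57 (adjusted p = 0.016; -0.23 and not called with the length trend removed), and Impact, its inhibitor, was at -0.48 (adjusted p = 0.023; -0.47, adjusted p = 0.032).

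Of the 6 bZIP partners of ATF4, 2 rose, with a median of 0.19. Atf3, a stress-induced factor, had 1.39, 1.79 and 1.35 CPM in Ctrl and 6.46, 7.13 and 2.08 CPM in Sox2 cKO, so that Sox2 cKO library 5 was much nearer to Ctrl than the other two. Its log2 fold change was 1.78 ± 0.41 (SE, edgeR adjusted p = 0.017) and 1.61 with the length trend removed. Cebpb, which can bind the element together with ATF4, had 2.38, 2.62 and 2.12 CPM against 4.26, 6.04 and 5.74 CPM and rose by 1.17 ± 0.19 (adjusted p = 0.012; 0.93 with the length trend removed, adjusted p = 0.026). Cebpb is also abundant in myeloid cells, and the summed neutrophil markers were 12.5 to 20.1 CPM in Ctrl and 24.0 to 84.9 CPM in Sox2 cKO. The part of such cells in the value was not tested.

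Of 25 further ATF4 targets 23 were tested, 3 rose and 4 fell, with a median of 0.053. This balance was not kept in other settings, with 4 higher and 0 lower in limma on log2(FPKM + 1), 4 higher and 1 lower with upper quartile scaling, and 1 higher and 0 lower with the length trend removed. Mthfd2, the mitochondrial folate enzyme that acts next to SHMT2, had 32.5, 31.2 and 33.0 CPM in Ctrl and 48.3, 50.0 and 55.1 CPM in Sox2 cKO. Its rise of 0.67 ± 0.08 (SE, edgeR adjusted p = 0.0087) held with the length trend removed (0.51, adjusted p = 0.018). Eif4ebp1, the translational repressor, rose by 0.81 (adjusted p = 0.024), and Nupr1, a small stress protein, rose by 1.04 (adjusted p = 0.030), but neither was called with the length trend removed (0.47 and 0.94). Slc7a11, the cystine-glutamate antiporter that is prominent in astrocytes, fell by 0.45 on the log2 scale (adjusted p = 0.028), which was -0.10 and not called with the length trend removed. Fgf21 and Gdf15, hormones that ATF4 induces, were too low to be tested.

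The 20 cytosolic aminoacyl-tRNA synthetases, many of which are ATF4 targets, had a median of -0.0023. The 2 that rose were both subunits of the phenylalanine enzyme, Farsa by 0.58 (edgeR adjusted p = 0.018; 0.58 with the length trend removed) and Farsb by 0.33 (adjusted p = 0.020; 0.17 and not called). Another 4 fell, led by Eprs at -0.35 (adjusted p = 0.016; -0.22, adjusted p = 0.044) and Kars at -0.33 (adjusted p = 0.023; -0.47, adjusted p = 0.019), whereas limma on log2(FPKM + 1) called 2 higher and 1 lower.

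Around serine, the 20 genes of glycine and one-carbon metabolism and serine transport had 2 that rose and 6 that fell, with a median of -0.0097. Mat2a, which makes S-adenosylmethionine, had 194, 147 and 143 CPM in Ctrl and 254, 271 and 234 CPM in Sox2 cKO and rose by 0.65 (edgeR adjusted p = 0.013; 0.59 with the length trend removed). Gcsh of the glycine cleavage system, named after its value was seen, also rose by 0.56 (adjusted p = 0.016) but was not called with the length trend removed (0.13). Slc6a9, the glial glycine transporter GLYT1, had 179, 233 and 194 CPM against 128, 140.4 and 151 CPM, a log2 fold change of -0.53 (adjusted p = 0.014; -0.52 with the length trend removed), and Amt, another gene of the glycine cleavage system, was at -0.50 (adjusted p = 0.015; -0.78). Serinc5, named as a serine incorporator, was at -0.61 (adjusted p = 0.013; -0.45). With the length trend removed, 1 gene of the list was called higher and 5 lower, and in limma on log2(FPKM + 1) 5 higher and 4 lower. The astrocyte markers moved in the same direction as Slc6a9, Amt and Serinc5, and their part was not tested.

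The ER branch of the stress response was represented by 20 chaperones and targets of ATF6 and XBP1, of which 1 rose and 5 fell, with a median of -0.11. Pdia4, a disulphide isomerase, was at -0.55 (edgeR adjusted p = 0.013; -0.66 with the length trend removed), Hyou1 at -0.54 (adjusted p = 0.014; -0.40) and Hsp90b1 at -0.35 (adjusted p = 0.015; -0.37), and all were called lower in both fits. Manf, a secreted ER protein, rose by 0.43 (adjusted p = 0.017; 0.30, adjusted p = 0.046). Of the 11 p53 targets, 3 rose, with a median of 0.059. These were Gadd45a (0.77, adjusted p = 0.015), Bax (0.69, adjusted p = 0.018) and Sesn1 (0.48, adjusted p = 0.028), of which only Sesn1 was still called with the length trend removed (0.47, adjusted p = 0.039).

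The sestrins differed in sign. Sesn3 had 60.0, 83.9 and 75.5 CPM in Ctrl and 32.5, 47.3 and 44.5 CPM in Sox2 cKO, without overlap, and fell with a log2 fold change of -0.82 ± 0.15 (SE, edgeR adjusted p = 0.013; -0.96 with the length trend removed). Sesn1 rose, and Sesn2 lay lower without passing the test. The other paralogues of the 10 genes were not called, with Chac2 at 0.43 (adjusted p = 0.10), Atf5 at 0.24 (adjusted p = 0.17), Trib2 at 0.087 (adjusted p = 0.44) and Trib1 at -0.029 (adjusted p = 0.88).

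Genes with the most similar profile over the 6 libraries were looked up for Phgdh and Atf4 among 11730 genes with a mean of at least 5 CPM, by the root mean square difference of centred log2 CPM. For Phgdh these were Rps3 (0.0185), Fam213b (0.0230) and Nop9 (0.0308), where the median of all genes was 0.194. For Atf4 they were Ypel3 (0.0403), Sncg (0.0496) and Lamtor5 (0.0533), where the median was 0.590. Ypel3 had 114, 76.0 and 63.4 CPM in Ctrl and 169, 159 and 153 CPM in Sox2 cKO, a pattern that its choice by likeness to Atf4 fixes.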

How the data were processed

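Poly(A) RNA libraries were made with a directional kit. The authors aligned reads to mm10 with STAR 2.5, per the labels, and counted them per gene with HTSeq 0.6.1. They deposited these counts without normalization and FPKM computed by the authors from the same counts. Both tables have numbered columns that match no sample title. Columns 2, 4 and 6 were taken as Ctrl and 1, 3 and 5 as Sox2 cKO, as the study numbers its mice, and both group means matched the authors' table for all 1999 genes read (relative tolerance 0.0001, 0 genes with the groups exchanged). Further columns of per-sample values numbered 0. No 2 libraries agreed within counting noise (chi-square per degree of freedom 6.74 to 83.4 over 15 pairs). P-values cover the spread between these libraries.

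The test of counts was run with edgeR 4.0.16 in R 4.3.3 (filterByExpr, TMM, quasi-likelihood, no covariate, Benjamini-Hochberg over all genes at 0.05). CPM are TMM-scaled, the estimated biological coefficient of variation was 0.119, and standard errors came from the fold change and its test statistic. The length trend was removed per library with a lowess curve of span 0.3, using lengths recovered from counts and FPKM. The other alternatives were DESeq2 1.42.0, upper quartile scaling, no filter, at least 10 counts in every library, GC correction, limma 3.58.1 on log2(FPKM + 1) or + 0.1 (mean FPKM of 0.5 or more), and leaving out each library. The fits were tested on simulated data with and without a length trend. With a trend, most calls of the uncorrected fit were unchanged genes, and few were after the correction. The simulated trend was linear in log length and equal in all Sox2 cKO libraries, whereas the real trend differed between libraries. Such a trend is what the correction is built to remove. This result therefore gives no share of false calls in the real data.

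Annotation was GENCODE M21 (34490 identifiers matched). SOX2 site letters came from the study's supplementary table. The genes and lists were chosen with earlier results of these data known. Named were all 10 genes, Sox2, up to 4 called genes of lowest adjusted p per list, all paralogues, Gfap, Aldh1l1 and the 3 most similar profiles to Phgdh and Atf4. Neighbours that share exons and Gcsh were named after their values or overlap were seen.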

Additional observations from a re-analysis of the deposited data

How the results depend on the processing

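Across alternatives both the calls and the fold changes of the 9 genes moved, and Asns and Phgdh changed sign in some fits. Leaving out 1 library gave 8 to 6119 differentially expressed genes (8 without Sox2 cKO library 1, 26 without Ctrl library 4, 1082 without Ctrl library 6, 1359 without Sox2 cKO library 3 and 6119 without Ctrl library 2), 0 to 5 of the 9 genes called and 0 to 53 of the pathway lists, whose count was 37. At an unadjusted p below 0.05, edgeR gave 4945 genes without Sox2 cKO library 1 and 4758 without Ctrl library 4, with 6 and 5 of the 9 genes and 41 of the list genes in both. DESeq2, added after these values were seen, gave 2342 genes, 1 of the 9 (Psph) and 28 list genes without Sox2 cKO library 1, and 1996 genes, 2 of the 9 (Atf4 and Psph) and 23 list genes without Ctrl library 4. In these DESeq2 fits Atf4 was 0.90 and 0.84, Ddit3 0.46 and 0.44, Shmt2 0.39 and 0.42. The length correction gave 2109 genes, 2 of the 9 and 21 list genes (8 higher, 13 lower), with Ddit3 at 0.18, Shmt2 at 0.30 and Asns at -0.058. Limma on log2(FPKM + 1) and log2(FPKM + 0.1) called 5 of the 9, with Chac1 at 0.33 and 0.41 and Phgdh at 0.046 and 0.047. These limma fits called 3585 and 3510 genes. Their fold changes lay above those of edgeR by a median of 0.094 and 0.099 over all genes. The GC correction called 4131 genes and also 5 of the 9, with Sesn2 at -0.32. Leaving out 1 library gave 0.77 to 1.27 for Atf4, 0.43 to 0.69 for Ddit3, 0.072 to 0.13 for Asns, 0.21 to 0.41 for Chac1, -0.14 to 0.016 for Phgdh, -0.16 to -0.052 for Psat1, 0.48 to 0.64 for Psph, 0.35 to 0.50 for Shmt2 and -0.30 to -0.23 for Sesn2. Trib1, near 0 throughout, became 0.015 with upper quartile scaling, 0.056 and 0.074 in limma, 0.0081 with the length correction and -0.10 to 0.066 without a library. Shmt1 became 0.0019 with upper quartile scaling, 0.041 and 0.072 in limma, 0.013 and 0.13 in the added DESeq2 fits and -0.20 to 0.14 without a library. The cause of these shifts was not tested. Among called genes 2008 of 3970 were lower, against 1652 of 3965 with upper quartile scaling, 915 of 3585 and 896 of 3510 in limma. No paired analysis was possible because the columns carry no replicate numbers. Depth limits Trib3, whose libraries held 3 to 14 counts.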

Other observations

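Promoter letters of the other pathway lists are given as a description. The CARE letters (TGATGNAA, either strand) were found in 8 of 20 further ATF4 targets with a promoter in RefSeq (GRCm38.p6), namely Vldlr, Slc7a11, Slc1a4, Pycr1, Pck2, Fgf21, Nupr1 and Herpud1. They were also found in 5 of 12 aminoacyl-tRNA synthetases, in 2 of 6 bZIP partners (Atf3 and Jdp2) and in 0 of 15 genes around serine, glycine and one-carbon metabolism. Of all genes with a promoter, 4.51% held these letters, so that 0 of 15 is no departure from that share. The ER stress response element, searched as CCAAT and CCACG with 9 bases between them on either strand, was found in 8 of 17 ER chaperone and ATF6 or XBP1 genes, beside 0.137% of all genes with a promoter, and in 0 of the 10 serine synthesis and ATF4 stress genes. The 8 were Hsp90b1, which fell, and Hspa5, Dnajc3, Pdia6, Calr, Canx, Creld2 and Syvn1, which edgeR did not call in either direction.

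Markers of further cell types are given as values, beside 12.2% of all genes tested that edgeR called higher and 12.4% that it called lower. Of 8 oligodendrocyte precursor markers 4 fell, with a median of -0.30 on the log2 scale and a summed level of 618 to 659 CPM in Ctrl and 498 to 545 CPM in Sox2 cKO. Of 10 neuron markers 1 rose in edgeR, with a median of 0.050, while 3 were higher at an unadjusted p below 0.05 and 3 were called higher by DESeq2. With the length trend removed 1 neuron marker was called higher and the median was 0.11. Of 9 oligodendrocyte markers edgeR called 0, with 2 lower at an unadjusted p below 0.05, while 2 were called lower with the length trend removed and 3 by DESeq2. The 5 red blood cell markers had a median of -0.36, and of -0.76 with the length trend removed, and 0 were called by edgeR, by DESeq2 or at an unadjusted p below 0.05. The 6 pericyte and smooth muscle markers had a median of 0.30, and 1 rose. The share of counts on 13 mitochondrially encoded genes was 5.29% to 6.15% over the 6 libraries, and the groups overlapped.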
